A study of Mus musculus with 18 samples.

Results

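The 9 genes of the interleukin-2 and interleukin-15 signalling module were followed in mouse splenic natural killer (NK) cells: the cytokine Il15, the receptor chains Il15ra, Il2ra, Il2rb and Il2rg, the kinases Jak1 and Jak3, and the transcription factors Stat5a and Stat5b. The rule that picks them uses gene names only, and they are 9 of the 55487 gene identifiers in that table. All 9 passed the filter on low counts and are among the 14864 genes tested. The knock-out (KO) cells came from mice with floxed alleles of the ATP citrate lyase gene (Acly fl/fl). The wild-type (WT) cells came from mice without them. Mice of both genotypes carried Ncr1 CRE-ERT2, a tamoxifen-inducible Cre driven from the Ncr1 locus of NK cells, and the reporter Rosa YFP/YFP. Both genotypes received tamoxifen in the diet for 48 hours, and YFP-positive NK cells were sorted 5 days after it was withdrawn. The cells were profiled fresh, after priming for 72 hours in 100 ng/ml IL-15, or after priming, washing and 6 hours on plate-bound NKG2D reagent at 20 ug/ml. No group was cultured without IL-15, so IL-15 and 72 hours of culture cannot be told apart in any primed over fresh change. Each of the 6 groups had 3 RNA-seq libraries. The labels do not say whether these came from separate or pooled animals, so the p-values below measure the spread between these libraries.

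IL-15 is a survival and growth factor of NK cells. It is held on the surface of other cells by the IL-15 receptor alpha chain (Il15ra) and presented to the shared beta chain (Il2rb) and common gamma chain (Il2rg) of the NK cell. JAK1 binds the beta chain and JAK3 the gamma chain, and both phosphorylate STAT5A and STAT5B, which move to the nucleus and act on genes such as Cish, Bcl2 and Myc. The IL-2 receptor alpha chain (Il2ra, CD25) raises the affinity of the same beta and gamma pair for IL-2 and is itself a known STAT5 and NF-kappaB responsive gene in lymphocytes. NKG2D, encoded by Klrk1, is an activating receptor of NK cells.

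The library totals were between 14772350 and 34367582 expected counts. Primed KO replicate 1 was the shallowest library and had reads on 14695 genes, against 17877 to 19668 in the other libraries. Acly mRNA, the check of the deletion, averaged 18.9 ± 5.66 counts-per-million units (CPM) in fresh KO cells and 250.3 ± 16.7 CPM in fresh WT cells (SD, n = 3 each). In primed cells it averaged 42.8 ± 5.56 CPM in KO and 256.2 ± 26.9 CPM in WT, and after NKG2D 36.3 ± 7.22 CPM in KO and 164 ± 32.9 CPM in WT (SD, n = 3 each). The 7 NK markers summed to between 15670 and 19910 CPM in fresh cells and to between 11410 and 16930 CPM in primed cells. After NKG2D they summed to 5142 to 6356 CPM in KO and 7482 to 8345 CPM in WT. There Gzma, Prf1 and Ncr1 were lower in every KO library than in any WT library. Eomes, Klrk1 and Itga2 were higher in every KO library, and Klrb1c overlapped. The 4 B cell markers summed to at most 5.6 CPM in any library. Haemoglobin transcripts were found almost only in fresh cells, at 16.1 to 17.99 CPM in KO and 113 to 198 CPM in WT. In every group 1 of the 3 libraries had Xist, the transcript of the inactive X chromosome, at 45.9 CPM or more, and the others were at 0.744 CPM or less.

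On mm10, Il2ra (chr2:11642807-11693193, plus strand) and Il15ra (chr2:11705290-11734317, plus strand) lie 12.1 kb apart. Stat5b (chr11:100780731-100850724, minus strand) and Stat5a (chr11:100859351-100885169, plus strand) lie 8.6 kb apart. Both STAT5 genes are on the same chromosome as the deleted gene, with Stat5b 252.7 kb and Stat5a 331.4 kb from Acly. Il2rg (chrX:101264378-101268255, minus strand) shares 728 exonic bases with the predicted gene Gm20489, which had at most 8.31 counts in any library. Jak3 (chr8:71676296-71690575, plus strand) shares 404 exonic bases with Insl3 on the same strand. Il15 (chr8:82331632-82403222, minus strand), Il2rb (chr15:78479256-78495271, minus strand) and Jak1 (chr4:101152367-101265282, minus strand) complete the set.

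Il2ra, Il15ra and Il2rg are the receptor chains that were lower together in NKG2D-stimulated KO cells, and their upstream sequences are shown for that reason. Each runs 5′ to 3′ on the gene's strand and was taken from RefSeq promoter windows on GRCm38.p6. Capitals mark matches to the NF-kappaB consensus on either strand, which was chosen after the sequences had been seen.
Il2ra, chr2:11642542-11642791, plus strand: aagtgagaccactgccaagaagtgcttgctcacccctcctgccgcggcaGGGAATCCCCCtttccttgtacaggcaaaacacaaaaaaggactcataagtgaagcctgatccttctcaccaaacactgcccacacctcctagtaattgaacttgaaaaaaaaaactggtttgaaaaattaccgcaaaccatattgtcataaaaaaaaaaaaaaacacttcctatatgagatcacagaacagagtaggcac
Il15ra, chr2:11705043-11705289, plus strand: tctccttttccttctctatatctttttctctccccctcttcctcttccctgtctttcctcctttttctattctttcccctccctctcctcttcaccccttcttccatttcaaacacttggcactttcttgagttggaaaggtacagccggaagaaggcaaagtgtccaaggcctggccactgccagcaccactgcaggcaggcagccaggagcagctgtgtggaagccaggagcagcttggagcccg
Il2rg, chrX:101268256-101268505, minus strand: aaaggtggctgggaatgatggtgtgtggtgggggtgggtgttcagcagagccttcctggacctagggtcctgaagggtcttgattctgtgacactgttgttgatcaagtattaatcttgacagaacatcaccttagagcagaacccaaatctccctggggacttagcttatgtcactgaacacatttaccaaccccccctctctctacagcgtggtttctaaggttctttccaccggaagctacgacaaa
The Il2ra window holds 2 overlapping matches, whose first bases lie 201 and 200 bases before the RefSeq start. No match was found in the printed Il15ra and Il2rg windows. Windows of 250 bases were given for 7 of the 9 genes, 10 windows in all; none was given for Il15 and Il2rb. Across these 10 windows, 2 held the NF-kappaB consensus, one of Il2ra and one of Stat5a, against 7.25% of 32851 windows of the same length. The STAT motif TTCNNNGAA, which reads the same on both strands, was in 0 of the 10 windows and in 7.02% of all windows.

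The members span a wide range of transcript levels. Per kilobase of annotated exon, the mean level over all 18 libraries was 717 CPM per kb for Il2rg, 677 for Il2rb and 132 for Jak1. Il2ra averaged 7.49 CPM per kb, Stat5a 6.18, Jak3 5.87, Stat5b 5.28 and Il15 4.24. The lowest was Il15ra, the chain that other cells use to present IL-15, at 1.73 CPM per kb. The plot by library below shows how differently the genes moved: Il2ra spanned a 22.9-fold range between its lowest and highest group mean, Il15 6.28-fold and Jak1 5.07-fold, whereas Il2rg spanned 1.48-fold.

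**Figure D1:**
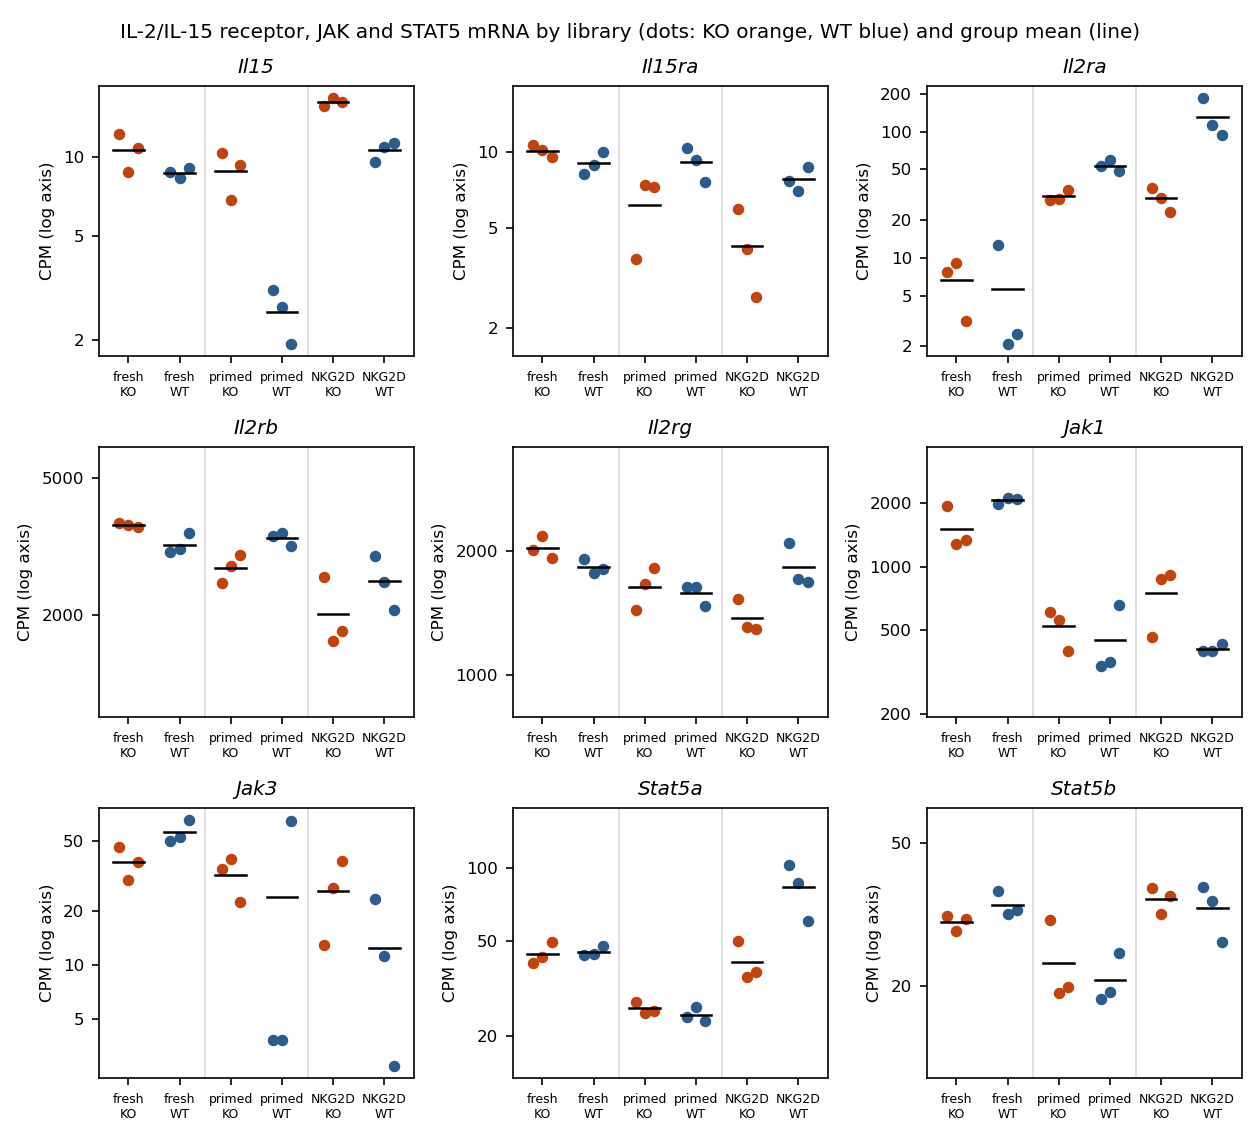
Expression of the 9 genes by library. Each panel is 1 gene, the y axis is CPM on a log scale, the x axis lists KO and WT groups in fresh, primed and NKG2D-stimulated cells, dots are libraries and black lines are means of 3. Il2ra is highest in the 3 NKG2D-stimulated WT libraries (93.6 to 183 CPM), Il15 lowest in primed WT (1.94 to 3.12 CPM), and Jak3 splits within primed WT (3.78, 3.82 and 64.6 CPM).

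Between KO and WT, more members were called after NKG2D than in fresh or primed cells. In fresh cells 0 of the 9 genes passed an adjusted p of 0.05 in edgeR's quasi-likelihood test. An unadjusted p under 0.05 was reached by 0 of them, and DESeq2 also called 0. In the fit over all libraries 0.0673% of all tested genes passed. With the 6 fresh libraries fitted alone, 0 members and 780 genes passed. Spread between libraries, as 1 biological coefficient of variation for all genes, was smallest there at 0.163. After NKG2D it was 0.218, in primed cells 0.316 and over all libraries 0.234. The 0.0673%, here and below, belongs to the fit over all libraries and does not show that few genes differ in fresh cells. The part of unequal spread in these counts was not tested. Fresh KO and WT libraries still did not overlap for Il2rb (log2 fold change 0.19) and Il2rg (0.16), higher in KO. Nor did they for Jak1 (-0.44), Jak3 (-0.55) and Stat5b (-0.16), lower in KO. The share of all genes apart in this way was not counted. In primed cells 1 gene passed (Il15, higher in KO), against 15.5% of all genes. After NKG2D, 6 of 9 passed, against 18.2% of all genes. Il15 and Jak1 were higher in KO (2 of 9, against 8.75% of all genes), and Il2ra, Il2rg, Il15ra and Stat5a were lower (4 of 9, against 9.47%). The median log2 fold change of the 9 genes in that comparison was -0.31, and that of all tested genes 0.03. With 1 library at a time left out, the number of the 9 genes called after NKG2D was between 2 and 7. Stat5a and Il2ra were called in each of those 6 fits.

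**Figure D2:**
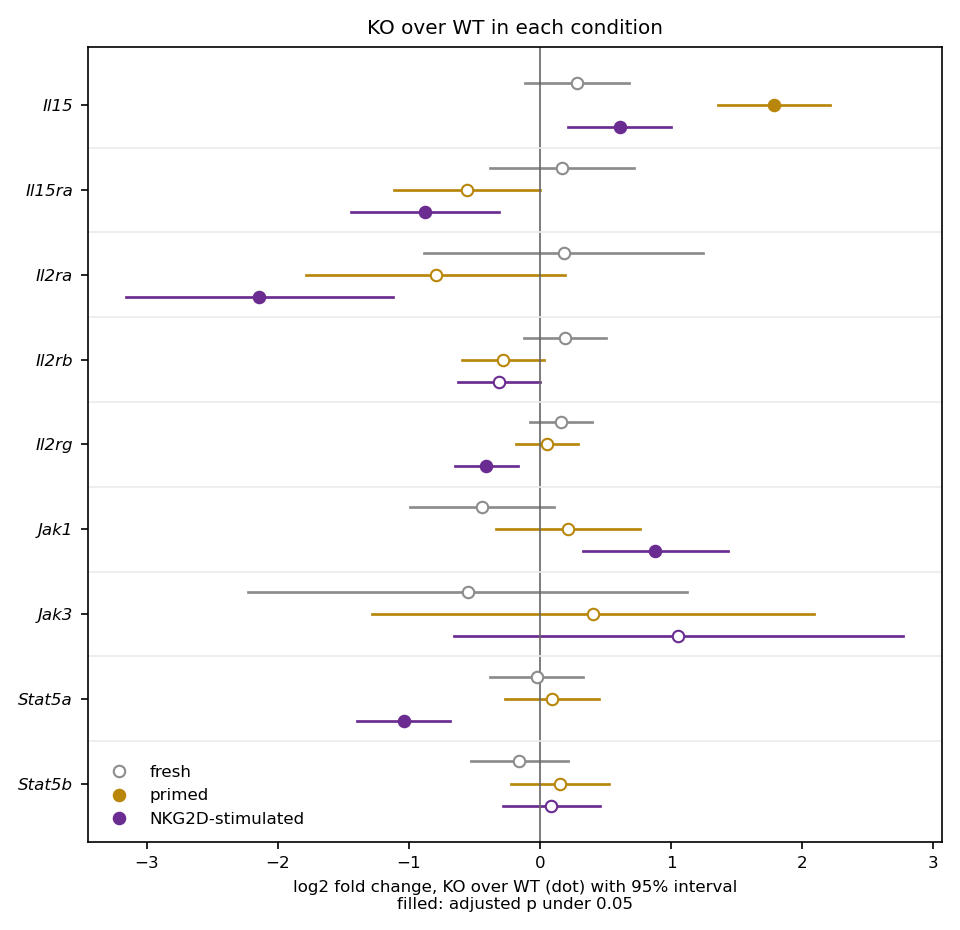
KO over WT for the 9 genes in fresh, primed and NKG2D-stimulated cells. The x axis is the log2 fold change with its 95% interval (3 libraries a group) and filled dots passed an adjusted p of 0.05. No dot is filled for fresh cells, only Il15 (1.79) for primed cells, and 6 genes after NKG2D, from Il2ra at -2.14 to Jak1 at 0.88.

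Il15, the cytokine itself, was the one member called higher in KO in both cultured conditions. In primed cells it was at 10.4, 6.87 and 9.29 CPM in KO, against 3.12, 2.67 and 1.94 CPM in WT. The groups did not overlap: the lowest KO library had more than any WT library. The log2 fold change was 1.79 (SE 0.20, adjusted p = 2.03e-05), a 3.45-fold higher level in KO. These values rest on 155 to 193 counts per KO library and 49 to 66 counts per WT library. After NKG2D, Il15 was at 15.6, 16.7 and 16.1 CPM in KO, against 9.56, 10.9 and 11.3 CPM in WT. Again the groups were apart, by 0.61 in log2 units (SE 0.19, adjusted p = 0.0299). That smaller difference lost its call when any library but NKG2D KO replicate 1 was left out (adjusted p 0.0532 to 0.112) and without the filter on low counts (adjusted p = 0.0829). In fresh cells Il15 was at 12.2, 8.74 and 10.8 CPM in KO, against 8.75, 8.31 and 9.11 CPM in WT, and the groups overlapped (log2 fold change 0.28, 95% interval -0.11 to 0.68, adjusted p = 0.563).

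The genotypes differed in how Il15 responded to priming. In KO cells the primed and fresh levels overlapped (log2 fold change -0.26, 95% interval -0.66 to 0.13, adjusted p = 0.261). In WT cells Il15 fell by 1.77 on the log2 scale on priming (adjusted p = 1.07e-06), to 29.3% of the fresh level. The difference between these responses was 1.51 (SE 0.27, adjusted p = 0.00256), and 10.5% of all genes passed that test. Il15 was higher after NKG2D than in primed cells, by 0.87 in KO (adjusted p = 0.0016) and by 2.05 in WT (adjusted p = 1.57e-06) on the log2 scale. The cells were washed before NKG2D, so withdrawal of IL-15 and NKG2D stimulation cannot be told apart in any NKG2D over primed change. The KO response was the smaller by 1.18 (SE 0.27, adjusted p = 0.024, where 3.55% of all genes passed). This difference was no longer called without primed KO replicate 3, primed WT replicate 3, NKG2D KO replicate 3 or NKG2D WT replicate 2 (adjusted p 0.0514 to 0.0617), nor with the libraries fitted alone (adjusted p = 0.0711). In bulk libraries, fewer cells making a transcript and less transcript per cell cannot be told apart. Myeloid cells are a known source of IL-15, and the summed level of 10 monocyte, macrophage and dendritic cell markers was 204 to 256 CPM in primed KO and 158 to 187 CPM in primed WT. After NKG2D it was 370 to 504 CPM in KO and 240 to 275 CPM in WT. Of these markers Lyz2, Clec9a and Siglech were at 0 in all 4 cultured groups, and most of the sum was Itgax, which NK cells also express, at 162 to 212 CPM in primed KO and 102 to 118 CPM in primed WT. Single markers did not all run the same way. In primed cells Cd68 was at 37.2 to 41.1 CPM in KO and 51.9 to 65.7 CPM in WT, and Cd14 at 0.144 to 0.268 CPM in KO and 1.38 to 1.64 CPM in WT. After NKG2D, Cd68 was at 90.2 to 108.5 CPM in KO and 46.8 to 68.8 CPM in WT, and Cd14 at 0.367 to 0.545 CPM in KO and 1.03 to 2.19 CPM in WT. Their part in the Il15 result was not tested.

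Il15ra encodes the alpha chain specific for IL-15. After NKG2D it was at 5.91, 4.12 and 2.65 CPM in KO, against 7.65, 6.96 and 8.66 CPM in WT. Every KO library was below every WT library, by 0.88 in log2 units (SE 0.27, adjusted p = 0.0297). The call was lost when any library but NKG2D KO replicate 1 was left out (adjusted p 0.0524 to 0.137), and when the 6 libraries were fitted alone (adjusted p = 0.0582). In primed cells the values were 3.75, 7.41 and 7.22 CPM in KO and 10.3, 9.27 and 7.59 CPM in WT, apart but not called (log2 fold change -0.55, adjusted p = 0.165). Priming lowered Il15ra in KO by 0.71 on the log2 scale (adjusted p = 0.0341), a call lost without primed KO replicate 1, the shallowest library with 56 Il15ra counts, or without any fresh KO library (adjusted p 0.0738 to 0.188), and with the 6 libraries fitted alone (adjusted p = 0.0751). In WT cells the primed and fresh means were 9.07 and 8.998 CPM (log2 fold change 0.01, 95% interval -0.54 to 0.56). The test of a difference between the 2 priming responses gave -0.72 (adjusted p = 0.228).

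Il2ra had the largest response of the module to culture. The level was 28.9, 29.3 and 34.5 CPM in primed KO libraries, against 7.71, 9.09 and 3.13 CPM in fresh KO libraries, a log2 fold change of 2.24 (SE 0.50, adjusted p = 0.00138). In WT it was 52.9, 59.0 and 49.0 CPM in primed libraries, against 12.5, 2.06 and 2.46 CPM in fresh ones, a log2 fold change of 3.21 (SE 0.52, adjusted p = 5.06e-05), or 4.57 without fresh WT replicate 1. All primed libraries were above all fresh libraries, in both genotypes. Fresh WT replicate 1, at 12.5 CPM, stood apart from the other 2. The T cell marker Cd3e ran alongside in fresh cells, at 10.2, 8.99 and 3.35 CPM in KO replicates 1 to 3 and at 12.6, 2.53 and 1.99 CPM in WT replicates 1 to 3, and its part in the Il2ra values was not tested. Because of that library the fresh groups overlapped and KO over WT was 0.18 in fresh cells (95% interval -0.88 to 1.24, adjusted p = 0.924), with values between -0.21 and 1.54 when 1 library at a time was left out. The difference between the responses was -0.98 with all libraries (adjusted p = 0.392), -0.95 without the filter on low counts (adjusted p = 0.0193) and -2.33 without fresh WT replicate 1 (adjusted p = 0.00941).

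After NKG2D the difference of Il2ra between the genotypes was called. Il2ra was at 35.9, 29.6 and 23.1 CPM in KO, against 183, 113 and 93.6 CPM in WT. The highest KO library was far below the lowest WT library, and the means were 29.5 ± 6.43 CPM in KO and 130.1 ± 47.2 CPM in WT (SD, n = 3 each). The log2 fold change was -2.14 (SE 0.48, adjusted p = 0.00508), so that 22.7% of the WT level remained. In KO cells NKG2D-stimulated over primed gave a log2 change of -0.07 (95% interval -1.05 to 0.92, adjusted p = 0.932). WT cells were above their primed level in every library, by 1.28 on the log2 scale (95% interval 0.29 to 2.27), which missed the threshold (adjusted p = 0.0644). It passed when the 6 libraries were fitted alone (adjusted p = 0.00703) or without the filter on low counts (1.33, adjusted p = 4.53e-09). Without the filter the fold change hardly moved while the adjusted p fell steeply, so p-values without the filter call for caution. The cause of that fall was not tested. The difference between the genotypes in this response was -1.35 (SE 0.66, unadjusted p = 0.0571, adjusted p = 0.293), or -1.39 without the filter on low counts (adjusted p = 0.000128).

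In primed cells Il2ra was lower in each KO library than in any WT library, at a mean of 30.9 ± 3.12 CPM in KO and 53.6 ± 5.06 CPM in WT (SD, n = 3 each). The log2 fold change of -0.79 did not pass in the fit over all 18 libraries (adjusted p = 0.264). It passed with the primed libraries alone (-0.77, adjusted p = 0.0126) and without the filter on low counts (-0.76, adjusted p = 0.00322). The authors' deposited table for primed cells has -0.77 with an adjusted p of 0.0133. CD25 is also a marker of T cells, and 6 T cell markers summed to 13.8 to 16.9 CPM in NKG2D-stimulated KO and 27.3 to 48.1 CPM in NKG2D-stimulated WT. In primed cells the sum was 16.9 to 19.3 CPM in KO and 30.6 to 61.9 CPM in WT, while Cd3e alone was at 1.40 to 3.08 CPM in KO and 0.123 to 1.32 CPM in WT. Cd8b1 was at 0 in both groups of NKG2D-stimulated cells, Foxp3, the regulatory T cell factor, was at 0.294 CPM or less in them, and Cd3g was at 8.72 to 12.9 CPM in KO and 20.6 to 34.6 CPM in WT. The part of these transcripts in the Il2ra result was not tested.

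Il2rb and Il2rg, the chains that transmit the signal, were the most abundant members, and their group means spanned only 1.81-fold and 1.48-fold. In NKG2D-stimulated cells Il2rg was at 1523, 1309 and 1294 CPM in KO, against 2087, 1711 and 1676 CPM in WT. All KO libraries were below all WT libraries, by 0.41 in log2 units (SE 0.11, adjusted p = 0.0174), and 75.4% of the WT level remained. The call was lost without NKG2D KO replicate 3 or NKG2D WT replicate 1 (adjusted p 0.0662 and 0.0982) and when the 6 libraries were fitted alone (adjusted p = 0.0765). Il2rb was at 2570, 1673 and 1790 CPM in KO, against 2953, 2482 and 2063 CPM in WT, and here the groups overlapped. Its log2 fold change of -0.31 was not called (adjusted p = 0.159), but was -0.53 (adjusted p = 0.00894) without NKG2D KO replicate 1, the highest KO library. The authors' deposited table for this condition has -0.47 with an adjusted p of 1.05e-05.

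Across conditions, the signalling chains were lower in cultured than in fresh KO cells. Il2rb averaged 3648 ± 45.0 CPM in fresh, 2740 ± 251 CPM in primed and 2011 ± 487 CPM in NKG2D-stimulated KO cells (SD, n = 3 each). The log2 fold changes were -0.41 for primed over fresh (adjusted p = 0.0296), -0.45 for NKG2D over primed (adjusted p = 0.0272) and -0.86 for NKG2D over fresh (adjusted p = 0.000171). Either single step lost its call with certain libraries left out: the first without any fresh KO library or primed KO replicate 1 or 2 (adjusted p 0.0623 to 0.173), the second without replicate 2 or 3 of either group (adjusted p 0.0642 to 0.163) or with the 6 libraries fitted alone (adjusted p = 0.0898). For Il2rg the means were 2034 ± 129, 1635 ± 190 and 1375 ± 128 CPM in the same order (SD, n = 3 each), with log2 fold changes of -0.25 for NKG2D over primed (adjusted p = 0.0937, or 0.0481 with DESeq2) and -0.56 for NKG2D over fresh (adjusted p = 0.000592). The first step of Il2rg in KO (-0.31, adjusted p = 0.0281) was lost without any fresh KO library or primed KO replicate 1 or 2 (adjusted p 0.0573 to 0.263), without the filter on low counts (adjusted p = 0.0571) and with the 6 libraries fitted alone (adjusted p = 0.0846). In WT cells neither chain was called in any of the 3 comparisons by edgeR over all 18 libraries. Il2rb was 0.41 lower on the log2 scale after NKG2D than in primed cells at an adjusted p of 0.06, or 0.0381 with DESeq2. With the 6 libraries fitted alone, Il2rb passed for NKG2D over fresh (-0.36, adjusted p = 0.0388) and Il2rg for primed over fresh (-0.23, adjusted p = 0.0433). There Il2rb averaged 3195 ± 220, 3331 ± 150 and 2499 ± 445 CPM in fresh, primed and NKG2D-stimulated cells, and Il2rg 1824 ± 77.1, 1575 ± 94.8 and 1825 ± 228 CPM (SD, n = 3 each). The priming responses of Il2rb differed between KO and WT by -0.47 without passing (adjusted p = 0.162), but passed with the libraries fitted alone (adjusted p = 0.0269). The NKG2D responses of Il2rg differed by -0.46 (adjusted p = 0.125), which passed with DESeq2 (adjusted p = 0.0368).

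Jak1, the kinase on the beta chain, had the largest fall on priming. In KO it was at 606, 561 and 397 CPM in primed libraries, against 1945, 1277 and 1339 CPM in fresh libraries. In WT it was at 337, 352 and 661 CPM in primed libraries, against 1993, 2117 and 2097 CPM in fresh libraries. No primed library reached the lowest fresh one. The log2 fold changes were -1.54 in KO (SE 0.27, adjusted p = 0.000124) and -2.20 in WT (SE 0.27, adjusted p = 2.77e-06). The responses differed by 0.66 (adjusted p = 0.271), by 1.03 without primed WT replicate 3 (adjusted p = 0.0346), or by 0.67 without the filter on low counts (adjusted p = 0.00984). After NKG2D, Jak1 was at 464, 871 and 915 CPM in KO, against 397, 399 and 428 CPM in WT. The WT libraries lay close together, while KO replicate 1 lay near them and the other 2 KO libraries well above. The difference of 0.88 in log2 units (SE 0.26, adjusted p = 0.0263) was lost when any library but NKG2D KO replicate 1 was left out (adjusted p 0.0581 to 0.14).

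Jak3, the kinase on the gamma chain, varied more between libraries of 1 group than any other member, with a biological coefficient of variation of 0.666, above that of 94.6% of tested genes. In primed cells it was at 34.5, 39.6 and 22.5 CPM in KO, against 3.78, 3.82 and 64.6 CPM in WT. Thus 2 primed WT libraries were far below every KO library and the third was above them all. After NKG2D it was at 13, 26.9 and 38.6 CPM in KO, against 23.4, 11.2 and 2.72 CPM in WT, and the groups overlapped; the log2 fold change of 1.06 was not called (adjusted p = 0.414) but passed without the filter on low counts (1.04, adjusted p = 0.00191). In fresh cells the spread was narrower, at 46.0, 30.0 and 37.7 CPM in KO and 49.7, 52.1 and 64.9 CPM in WT. With all libraries Jak3 was called in 1 comparison, NKG2D-stimulated over fresh WT cells, at -2.14 (SE 0.83, adjusted p = 0.0391), which was lost when any of those 6 libraries but NKG2D WT replicate 1 was left out (adjusted p 0.0576 to 0.133). Without primed WT replicate 3, Jak3 was 3.08 higher on the log2 scale in primed KO than in primed WT (adjusted p = 0.00294), and primed WT was 3.86 below fresh WT (adjusted p = 8.73e-05); with that library the values were 0.40 (adjusted p = 0.778) and -1.19 (adjusted p = 0.224). The authors' deposited tables have a KO over WT log2 fold change of 2.41 for Jak3 in primed cells (adjusted p = 0.0187) and of 1.58 after NKG2D (adjusted p = 0.0153).

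The libraries low in Jak3 shared 2 other features, both looked at after the Jak3 values had been seen. Insl3, which overlaps the gene, had 48 and 29.9 counts in primed WT replicates 1 and 2, and 9.41, 17.98 and 20.72 counts in NKG2D-stimulated WT replicates 1 to 3. Its counts were 7.64 in NKG2D-stimulated KO replicate 1 and 0 in all other libraries. H2-D1, a class I histocompatibility gene on another chromosome, was at 452, 444 and 4338 CPM in primed WT replicates 1 to 3, and at 1734, 900 and 496 CPM in NKG2D-stimulated WT replicates 1 to 3. In NKG2D-stimulated KO cells H2-D1 was at 1314, 4636 and 5325 CPM. It was therefore low in the same libraries as Jak3. The part of either gene in the Jak3 values was not tested. Jak1 was also lower in primed WT replicates 1 and 2 (337 and 352 CPM) than in replicate 3 (661 CPM). In NKG2D-stimulated KO cells it was lower in replicate 1 (464 CPM) than in replicates 2 and 3 (871 and 915 CPM). In NKG2D-stimulated WT replicates 1 to 3 it did not fall as Jak3 did, at 397, 399 and 428 CPM. Whether the Jak1 call after NKG2D is tied to this pattern was not tested.

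Stat5a had the smallest adjusted p of the 9 genes between genotypes after NKG2D. After NKG2D it was at 49.9, 35.3 and 36.9 CPM in KO, against 103, 87.3 and 60.3 CPM in WT. No KO library reached the lowest WT library. The log2 fold change was -1.04 (SE 0.17, adjusted p = 0.000453), and 48.6% of the WT level remained. In fresh and primed cells the genotype means lay close: 44.2 ± 4.84 CPM in KO and 45.1 ± 2.21 CPM in WT fresh cells, and 26.2 ± 1.51 CPM in KO and 24.6 ± 1.80 CPM in WT primed cells (SD, n = 3 each). The 95% intervals of the KO over WT log2 fold changes were -0.38 to 0.33 in fresh and -0.27 to 0.45 in primed cells.

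Stat5a was lower in primed than in fresh cells in both genotypes and was higher again after NKG2D. Primed over fresh was -0.76 in KO (adjusted p = 0.00133) and -0.88 in WT (adjusted p = 0.000314) on the log2 scale. NKG2D-stimulated over primed was 0.64 in KO (adjusted p = 0.00704) and 1.77 in WT (adjusted p = 1.39e-06). The KO response was the smaller by 1.13 (SE 0.24, adjusted p = 0.0144), but by 0.74 for the sum of both STAT5 genes, which missed the threshold (adjusted p = 0.0673), as did Stat5a with the libraries fitted alone (adjusted p = 0.0569). Relative to fresh cells, NKG2D-stimulated WT cells were 0.89 higher (adjusted p = 0.000252), while KO cells were at -0.12 (95% interval -0.47 to 0.23).

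Stat5b, the paralog, was not called between genotypes in any condition. NKG2D-stimulated libraries were at 37.5, 31.7 and 35.6 CPM in KO, against 37.7, 34.5 and 26.4 CPM in WT, and overlapped (log2 fold change 0.09, 95% interval -0.28 to 0.46). Primed libraries were at 30.4, 19.1 and 19.8 CPM in KO and 18.3, 19.1 and 24.7 CPM in WT. On priming Stat5b fell by 0.70 in WT (adjusted p = 0.00319). In KO the change was -0.39 (adjusted p = 0.0816), or -0.58 without primed KO replicate 1 (adjusted p = 0.00911). Stat5b was higher after NKG2D than in primed cells, by 0.60 in KO (adjusted p = 0.0141) and by 0.66 in WT (adjusted p = 0.0129). The KO call was lost without primed KO replicate 2 or 3 or NKG2D KO replicate 3 (adjusted p 0.0543 to 0.0656) or with the 6 libraries fitted alone (adjusted p = 0.0729), and the WT call without primed WT replicate 1 or 2 or NKG2D WT replicate 1 (adjusted p 0.0553 to 0.0647).

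Stat5a made up 50.9% to 57.1% of the counts of both STAT5 genes in NKG2D-stimulated KO libraries and 69.6% to 73.3% in NKG2D-stimulated WT libraries. In the other 4 groups the share was between 47.8% and 61.8%, as the plot of both genes shows. The genes are near copies in part: of the distinct 75-base stretches of the annotated transcripts, 5.12% of those of Stat5a and 6.99% of those of Stat5b occur in the other gene. The deposited counts of each gene were not whole in 16 of 18 libraries, whereas their sum was not whole in 4, so reads were shared out between them and single-gene values carry that uncertainty.

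**Figure D3:**
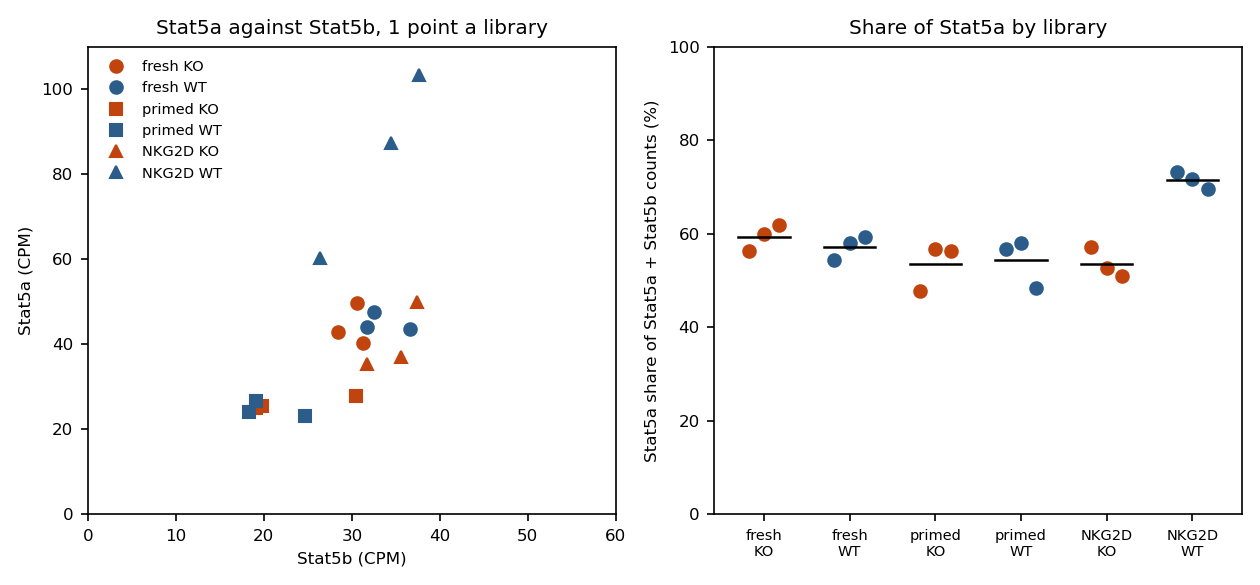
Stat5a and Stat5b by library. Left, Stat5a against Stat5b in CPM, 1 point a library; right, Stat5a as a percentage of the summed counts of both genes, with dots for libraries and lines for means of 3. The 3 NKG2D-stimulated WT libraries lie above the others in the share of Stat5a (69.6% to 73.3%), while Stat5b is at most 37.7 CPM in any library.

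Taking the module by condition, 6 of 9 genes changed on priming in KO (48.7% of all genes did) and 5 of 9 in WT (53.7% of all genes), so these shares are near the background. Il2ra was higher and Jak1 and Stat5a lower in both genotypes. Il2rb, Il2rg and Il15ra were also called lower in KO, and Il15 and Stat5b in WT; of these 5, only Il15 passed the test of a difference between genotypes. For NKG2D over primed cells, 4 of 9 were called in KO (35.3% of all genes) and 3 of 9 in WT (19.9% of all genes). Il15, Stat5a and Stat5b were higher in both, and Il2rb was lower in KO. For NKG2D over fresh cells, 6 of 9 were called in KO (40.7% of all genes) and 4 of 9 in WT (52.5% of all genes). The comparisons within a genotype share libraries.

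**Figure D4:**
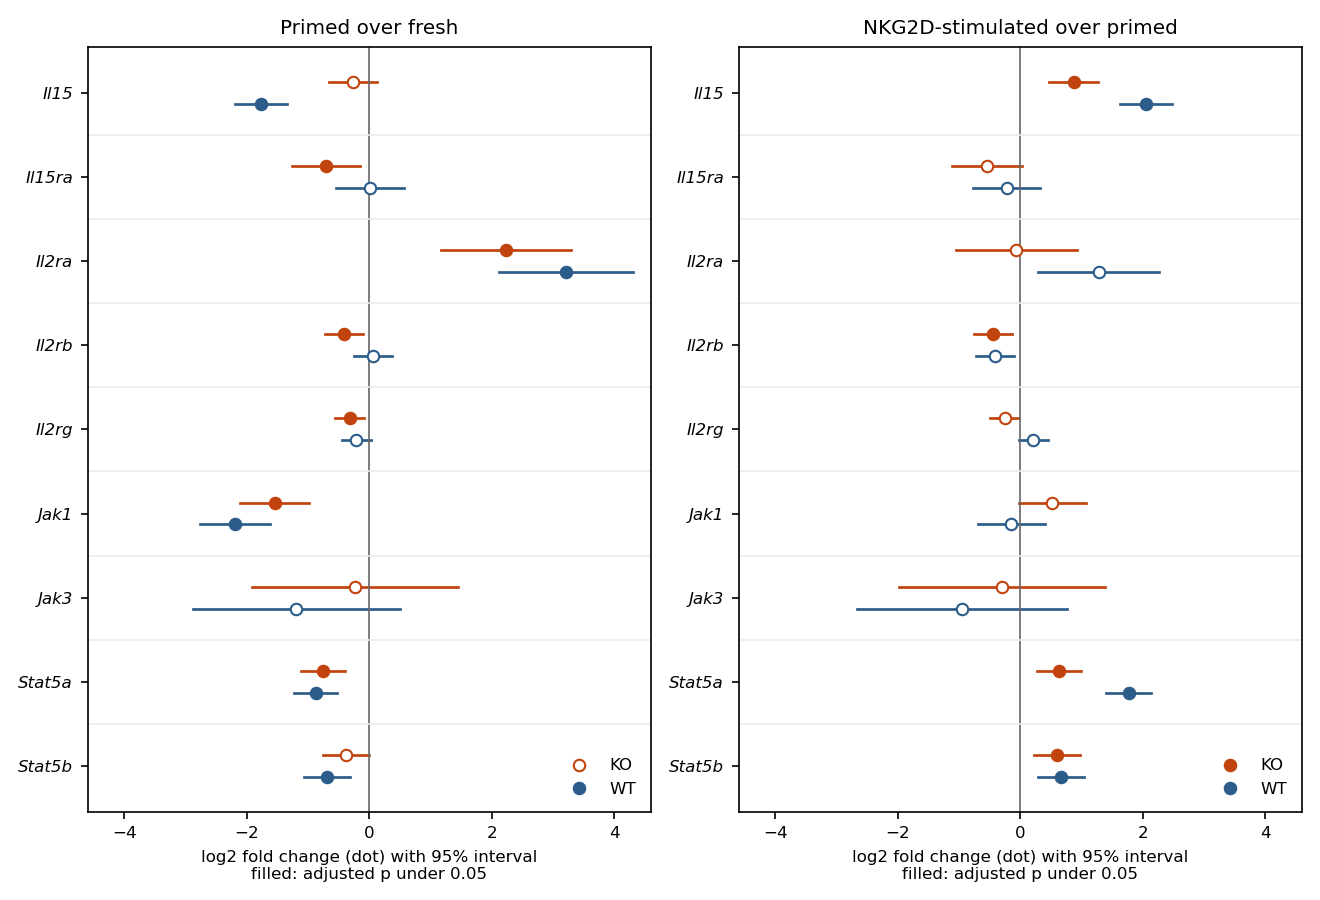
Responses of the 9 genes to priming (left, primed over fresh) and to NKG2D (right, NKG2D-stimulated over primed), for KO and WT. The x axis is the log2 fold change with its 95% interval and filled dots passed an adjusted p of 0.05. The KO and WT values lie furthest apart for Il15 on priming (-0.26 and -1.77). In the NKG2D panel they lie furthest apart for Il2ra (-0.07 and 1.28), followed by Il15 (0.87 and 2.05) and Stat5a (0.64 and 1.77).

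Within the module, the order of groups differed from gene to gene. Il2ra ran from NKG2D-stimulated WT (130 CPM) and primed WT (53.6 CPM) to primed KO (30.9 CPM) and NKG2D-stimulated KO (29.5 CPM), the last 2 overlapping, with both fresh groups below. Stat5a was highest in NKG2D-stimulated WT (83.7 CPM); both fresh groups and NKG2D-stimulated KO overlapped between 35.3 and 49.9 CPM, and both primed groups lay below. Jak1 was highest in fresh WT (2069 CPM) and fresh KO (1520 CPM), with the 4 cultured groups between 408 and 750 CPM and each overlapping the next. Il15 was highest in NKG2D-stimulated KO (16.2 CPM), and only primed WT (2.57 CPM) stood apart at the low end. Over the 18 libraries, which share groups, the log2 CPM of Il2rb, Il2rg and Il15ra ran together (Pearson r of 0.73 to 0.82 between pairs), as did Stat5a with Stat5b (r = 0.71) and Jak1 with Jak3 (r = 0.72), and Il2ra ran opposite to Jak1 (r = -0.89).

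Among tested genes of mean log2 CPM of at least 3, those most like Il2ra over the 18 libraries were Adam8 (r = 0.96), Il21r (r = 0.96) and Gpr34 (r = 0.95). For Stat5a they were Gadd45b (r = 0.96), Tnfrsf1b (r = 0.93) and Nfkb1 (r = 0.90), and for Stat5b Neurl3 (r = 0.88) and Kdm2b (r = 0.85). Jak1 was most like Arid4b, Ppp1r12a and Junb (r = 0.98, 0.97 and 0.97), and Jak3 most like Lman2, Acad9 and Zfpl1 (r = 0.97, 0.96 and 0.96). Il2rb was most like Septin9, Pik3cd and Slc35c2 (r = 0.95, 0.95 and 0.94), Il2rg like Trub2, Pisd and Tnfsf14 (r = 0.89, 0.89 and 0.87), Il15ra like Cst7, Cyba and Lrmp (r = 0.92, 0.92 and 0.91), and Il15 like Stard7, Nfe2l2 and Nlk (r = 0.89, 0.87 and 0.87). The libraries fall into 6 groups, so these values describe group patterns.

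Around the module, 4 lists of pathway genes were read in the same fits. Of 16 STAT5 target and feedback genes, 1 was higher and 5 were lower in KO than in WT after NKG2D, with a median log2 fold change of -0.30 (0.03 for all genes). Of all genes, 8.75% were called higher and 9.47% lower in that comparison. Cish, a feedback inhibitor induced by STAT5, averaged 4.04 ± 0.44 CPM in KO and 27.5 ± 22.4 CPM in WT (SD, n = 3 each), a log2 fold change of -2.77 (adjusted p = 0.000155), or -1.85 without NKG2D WT replicate 1. Ccnd2, the cell cycle gene cyclin D2, averaged 184 ± 5.6 CPM in KO and 327 ± 80.8 CPM in WT (SD, n = 3 each), -0.83 on the log2 scale (adjusted p = 0.00113). Socs3, another feedback inhibitor, was higher in KO by 1.91 at very low levels of 1.77 ± 0.87 CPM in KO and 0.47 ± 0.085 CPM in WT (SD, n = 3 each; adjusted p = 0.00588, or 0.0561 without NKG2D KO replicate 3). In primed cells 2 of the 16 were higher in KO and none lower, beside 15.5% of all genes called in either direction. They were Osm, higher by 1.02 (adjusted p = 0.0259), and Pim2, higher by 2.02 (adjusted p = 0.0434, or 0.12 with the primed libraries fitted alone). The Osm call was lost without replicate 2 or 3 of either group (adjusted p 0.0614 to 0.0839). The Pim2 call was lost without primed KO replicate 1 or 2 or primed WT replicate 1 or 2 (adjusted p 0.0859 to 0.156), and its value was 3.45 without primed WT replicate 3. None of the 16 was called in fresh cells, where 0.0673% of all genes were. In the NKG2D responses, Ccnd2 (-0.89, adjusted p = 0.0281) and Bcl2 (-0.52, adjusted p = 0.0488) were lower in KO, while in the priming responses Socs3 (1.89, adjusted p = 0.0139) and Osm (1.45, adjusted p = 0.0331) were higher. Of these, the Ccnd2 call was lost in 6 of 12 fits with 1 library left out, those without primed KO replicate 2 or 3, primed WT replicate 2 or 3, NKG2D KO replicate 3 or NKG2D WT replicate 1 (adjusted p 0.0577 to 0.0737). The Bcl2 call was lost in 11 of 12, all but the one without primed KO replicate 1 (adjusted p 0.0509 to 0.134). With the libraries fitted alone, neither was called (adjusted p 0.0694 for Ccnd2 and 0.0965 for Bcl2). The Osm call was lost in 7 of 12, those without fresh KO replicate 1 or 3, fresh WT replicate 2 or 3, primed KO replicate 2 or 3 or primed WT replicate 2 (adjusted p 0.0611 to 0.086). The Socs3 difference was 2.56 without primed WT replicate 3.

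After NKG2D, 13 of 16 were lower and 0 higher than in primed cells in KO and likewise in WT, with median log2 fold changes of -1.94 in KO and -1.73 in WT, against 0.04 and -0.01 for all genes, of which 35.3% in KO and 19.9% in WT were called in either direction. Bcl2, which protects from cell death, averaged 83.7 ± 3.46 CPM in NKG2D-stimulated KO and 474 ± 22.0 CPM in primed KO cells (SD, n = 3 each; log2 fold change -2.50, adjusted p = 1.13e-10). In WT it averaged 99.9 ± 11.5 CPM after NKG2D and 393 ± 24.5 CPM primed (SD, n = 3 each; -1.98, adjusted p = 8.02e-09). Myc, a growth regulator, had log2 fold changes of -4.14 in KO (adjusted p = 2.27e-09) and -3.09 in WT (adjusted p = 1e-07). The label states that the cells were washed between priming and NKG2D, so IL-15 withdrawal and NKG2D stimulation cannot be told apart in this comparison. On priming the list split, with 5 higher and 5 lower in KO and 4 higher and 7 lower in WT, beside 48.7% of all genes called in either direction in KO and 53.7% in WT. Cish was higher in primed than fresh WT cells by 2.76 (adjusted p = 1.05e-05) and Cdkn1a in primed than fresh KO cells by 2.05 (adjusted p = 5.93e-06), while Socs3 was lower, with log2 fold changes of -3.68 in KO (adjusted p = 1.02e-07) and -5.57 in WT (adjusted p = 1.27e-09), or -6.24 in WT without primed WT replicate 3.

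Of 7 other JAK and STAT genes, 2 were lower in KO after NKG2D, beside 9.47% of all genes. Among them was Stat4, lower by 0.31 (adjusted p = 0.0222). Its call was lost without NKG2D WT replicate 1 or 2 (adjusted p 0.0791 and 0.0947), without the filter on low counts (adjusted p = 0.111) and with the 6 libraries fitted alone (adjusted p = 0.0791). None of the 7 was called between genotypes in fresh or primed cells, where 0.0673% and 15.5% of all genes were. On priming 2 were higher and 3 lower in KO, and 2 higher and 5 lower in WT. Of all genes, 48.7% in KO and 53.7% in WT were called in either direction. Tyk2, the kinase that serves IL-12 and interferon receptors, was lower by 1.46 in KO (adjusted p = 1.43e-06) and 1.28 in WT (adjusted p = 5.11e-06). After NKG2D, 4 were higher and 1 lower than in primed KO cells, and 3 higher and 1 lower in WT. The shares of all genes called were 35.3% in KO and 19.9% in WT. Jak2 was higher by 0.83 in KO (adjusted p = 0.00032) and 1.10 in WT (adjusted p = 4.77e-05).

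Of 20 receptor-proximal signalling and phosphatase genes, 1 was higher and 2 lower in KO in primed cells, 2 higher and 1 lower after NKG2D, and none in fresh cells. Of all genes, 15.5% were called in primed cells, 18.2% after NKG2D and 0.0673% in fresh cells, so these shares are near the background. Pik3r1, the regulatory subunit of PI3 kinase, was lower in KO in primed cells by 0.54 (adjusted p = 0.00152) and after NKG2D by 0.40 (adjusted p = 0.01, or 0.0572 without NKG2D WT replicate 2 and 0.0665 with the 6 libraries fitted alone). The tyrosine kinase Syk was higher in KO by 0.48 in primed cells (adjusted p = 0.0242) and by 0.88 after NKG2D (adjusted p = 0.000338); the primed call was lost without primed KO replicate 2 or primed WT replicate 2 or 3 (adjusted p 0.0749 to 0.0921). Priming lowered 12 of the 20 and raised 1 in KO, and lowered 10 and raised 0 in WT, so 13 of 20 in KO and 10 of 20 in WT were called, beside the 48.7% and 53.7% of all genes. Of the 9 other common gamma chain cytokines and receptors, 5 passed the filter on low counts; Il4, Il9, Il21 and Il9r did not. Il21r, which pairs with the common gamma chain, was lower in KO in primed cells, at 53.3 ± 13.5 CPM in KO and 103 ± 19.7 CPM in WT (SD, n = 3 each; -0.95, adjusted p = 0.0198), and after NKG2D, at 54.5 ± 17.2 CPM in KO and 137 ± 29.4 CPM in WT (SD, n = 3 each; -1.33, adjusted p = 0.00202). The primed call of Il21r was lost without primed KO replicate 1 or primed WT replicate 1 or 2 (adjusted p 0.0533 to 0.0946). Like Il2ra, it was higher in primed than fresh cells, by 1.45 in KO (adjusted p = 0.000244) and 2.58 in WT (adjusted p = 5.21e-07). Il7r was lower in primed than fresh cells, by 1.65 in KO (adjusted p = 0.0368) and 2.28 in WT (adjusted p = 0.00618). The KO call was lost with any 1 of the 6 libraries left out (adjusted p 0.0576 to 0.11). The WT value was -1.31 and not called without fresh WT replicate 1 (adjusted p = 0.0783), and -3.40 without primed WT replicate 1.

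In the authors' deposited tables of KO over WT, 1 of the 9 members had an adjusted p under 0.05 in fresh cells (Il2rg), 3 in primed cells (Il2ra, Il15 and Jak3) and 8 after NKG2D, all but Stat5b. The signs of the genes called here were the same there. Those tables call Il2rb and Jak3 after NKG2D in addition to the 6 genes above. Of the genes they call after NKG2D, all but Il15 (0.599, against 0.609 here) have the larger fold change in size there. Among these are Il2ra (-2.23), Stat5a (-1.21), Il15ra (-1.22) and Jak1 (1.10).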

How the data were processed

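RNA was measured by SMARTer RNA-seq in 18 libraries, 3 in each of 6 groups. The authors' deposited table holds expected counts without scaling between libraries, and 27% of values above 0 are not whole. Reads were mapped to mm10 and bcl2fastq, DRAGEN and edgeR were used, per the submitters' processing notes; tool versions, settings and annotation were not stated there. The table has 55774 entries for 55487 identifiers; 168 identifiers repeat, and 1 entry of each was kept. The authors also deposited comparison tables with log2 fold changes and p-values, printed only where named; 54 per-library columns of those tables were not used.

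Expected counts were rounded and tested with edgeR 4.0.16 (R 4.3.3; quasi-likelihood, TMM factors, 1 mean per group over 18 libraries, 12 residual and 5.14 prior degrees of freedom) on 14864 genes kept by filterByExpr. P-values were adjusted by Benjamini-Hochberg over all these genes, with a threshold of 0.05. CPM uses TMM-scaled totals; CPM per kb divides by GENCODE M21 exon length, whose GRCm38 coordinates are those of mm10. The test was tried on simulated data with 1 spread per gene in all groups, so unequal spread between conditions, as found here, was not covered. DESeq2 1.42.0 was an alternative. Intervals are 95% and cover the spread between libraries; depth limits the low genes Il15 and Il15ra most.

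The 9 genes, the pathway and marker lists, and the tests were chosen with earlier results of these data known. All 9 genes are named in every comparison; of each pathway list, the 2 higher and 2 lower genes of smallest p past the threshold could be named. For each member, the 3 genes of highest Pearson r over the libraries are named. Some genes these rules select are not reported here. Marker lists covered NK, B, T, regulatory T and ILC2, myeloid and erythroid cells. The regulatory T and ILC2 list (Foxp3, Gata3, Il1rl1) summed to 101 to 214 CPM in NKG2D-stimulated KO and 70.2 to 117 CPM in NKG2D-stimulated WT, nearly all of it Gata3.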

Additional observations from a re-analysis of the deposited data

Results flagged for a closer look

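Il15 responded differently to priming in KO and WT cells: the primed over fresh change was 1.51 higher in KO on the log2 scale (SE 0.27, adjusted p = 0.00256), since Il15 fell in WT cells and the KO libraries overlapped. The direction of that difference held with each of the 12 libraries left out in turn.

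The responses of Il15 and Stat5a to NKG2D also differed between the genotypes. For Il15 the NKG2D over primed change was -1.18 in KO relative to WT (adjusted p = 0.024), and for Stat5a it was -1.13 (adjusted p = 0.0144). The Il15 difference was not called with the libraries fitted alone (adjusted p = 0.0711), with a replicate block within genotype (0.0625) or without both primed KO replicate 1 and primed WT replicate 3 (0.0846). The Stat5a difference was not called with the libraries fitted alone (adjusted p = 0.0569) or for the sum of both STAT5 genes (0.0673). For both genes the change was upwards in each genotype and smaller in KO.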

How the results depend on the processing

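No call changed with RLE factors in place of TMM. With DESeq2, 4 member values were newly called, among them Il2rb in WT cells after NKG2D; the genes called overall were 137 in fresh KO over WT (10 with edgeR) and 1016 in the NKG2D response difference (528). Without the filter on low counts, members called were 2 in primed KO over WT (1 with the filter), 6 in WT NKG2D over primed (3), 3 in the priming response difference (1) and 4 in the NKG2D response difference (2), and all genes called were 564 in fresh cells and 887 in the NKG2D response difference. Jak3 in WT priming was called there at -1.15 (adjusted p = 8.99e-05), against -1.19 (adjusted p = 0.224) with the filter. Yet primed WT replicate 3 was far above the others in Jak3. With the libraries of a comparison fitted alone, members called were 2 in primed KO over WT, 2 in KO NKG2D over primed (4 in the joint fit), 2 in the priming and 0 in the NKG2D response difference, where the 2 genes had adjusted p of 0.0711 (Il15) and 0.0569 (Stat5a); all genes called were 780, 1128 in primed cells (2307), 3450 in KO NKG2D over primed (5248) and 203. Without both primed KO replicate 1 and primed WT replicate 3, chosen after seeing the data, members called were 2 in primed cells (Il15 and Jak3), 2 in the priming and 1 in the NKG2D response difference. Except for the smaller fits, the cause of these changes was not tested.

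The labels do not say whether replicate numbers pair the libraries, and pairing was not excluded. Same-numbered libraries of compared groups had correlations of their deviations from the group means between -0.146 and 0.131. For primed over fresh KO cells they were 0.0916, 0.124 and 0.0363, each above those with other numbers. The same held for NKG2D over fresh WT cells, at 0.129, 0.0511 and 0.0356. For NKG2D over primed KO cells the correlations were -0.122, 0.0409 and -0.054, each below the highest with another number. In the remaining comparisons not every one was above. As a hint from the data, the library with Xist had the same number in every condition of a genotype. A replicate block ended the call of Jak3 in WT NKG2D over fresh (adjusted p = 0.0661) and of Il15ra in KO primed over fresh (adjusted p = 0.0512), and a block within genotype also ended those of Il2rb in KO primed over fresh (adjusted p = 0.0559) and Il15 in the NKG2D response difference (0.0625). Of the pathway genes named, a replicate block also ended calls of Pim2 (0.0612), Osm (0.0567) and Bcl2 (0.0798), and the block within genotype that of Ccnd2 (0.0805). The block within genotype left 1 member (Stat5a) and 250 genes in the NKG2D response difference and 972 genes in the priming response difference (1559).

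With 1 library left out in turn, members called ranged from 2 to 7 in KO NKG2D over primed, 3 to 6 in KO primed over fresh, 2 to 7 in NKG2D KO over WT, 1 to 2 in the NKG2D response difference, 1 to 2 in primed KO over WT and 1 to 3 in the priming response difference. All genes called ranged from 5 to 12 in fresh, 1357 to 2589 in primed and 1643 to 3051 in NKG2D KO over WT, and from 842 to 2453 in the priming and 242 to 598 in the NKG2D response difference. The values that changed sign were all uncalled with every library in. Those of Jak3 spanned -1.80 to 1.73 in WT NKG2D over primed, -0.71 to 0.031 in KO, -2.02 to 1.51 in the NKG2D response difference and -0.089 to 3.08 in primed KO over WT. Those of Il2ra spanned -0.21 to 1.54 in fresh KO over WT and -0.23 to 0.076 in KO NKG2D over primed, and Jak1 spanned -0.33 to 0.24 in WT NKG2D over primed. The rest were near 0: Il15ra in WT priming -0.075 to 0.13; Il2rb in the NKG2D response difference -0.25 to 0.11; Il2rg -0.10 to 0.065 in WT NKG2D over fresh, -0.029 to 0.16 in primed KO over WT and -0.17 to 0.021 in the priming response difference. Stat5a spanned -0.29 to 0.0024 in KO NKG2D over fresh and -0.13 to 0.018 in fresh KO over WT; Stat5b spanned -0.14 to 0.11 in WT NKG2D over fresh, -0.037 to 0.20 and -0.074 to 0.29 in NKG2D and primed KO over WT, and -0.21 to 0.17 in the NKG2D response difference. Other alternatives turned the sign of uncalled values: Stat5b in WT NKG2D over fresh to 0.019 without the filter; Il15ra in WT priming to -0.0048 and Il2rg in WT NKG2D over fresh to -0.0018 with libraries fitted alone; Il2rg to -0.0022 with the replicate block and -0.0051 with the block within genotype, which also took Jak3 in the NKG2D response difference to -0.24. With the 2 primed libraries out, Jak1 and Jak3 in WT NKG2D over primed were 0.22 and 1.72, and Jak3 and Stat5b in the NKG2D response difference -1.98 and 0.029. Summing both STAT5 genes gave 0.025 for KO NKG2D over fresh.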
